A study of Mus musculus with 3 samples.

Results

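The Ifitm family was followed through mouse blood as its 4 members Ifitm1, Ifitm2, Ifitm3 and Ifitm6, which were taken by symbol from the 32285 genes of the count matrices. The data were 3 droplet-based single-cell RNA sequencing libraries of peripheral blood mononuclear cells (PBMCs), 1 each from young mice aged 8 weeks, aged mice of 16 months and aged-GA mice of 16 months given glycyrrhizic acid (GA), a saponin of licorice root, for 1 month. Per the methods, all mice were female C57BL/6, GA was injected into the tail vein every other day and the controls received PBS, whereas the labels list no treatment for the young and aged mice. The study describes several mice behind each group, but the cells of a library carry no label of the mouse, so each group counted as 1 sample. A group and its library cannot be told apart, and the values carry no p. Intervals of 95% are exact and cover counting error only. The family was chosen by a value of an earlier analysis of these data, the lower Ifitm3 of B cells in aged-GA than in aged mice, so every aged-GA and aged level of B cells is given as a description.

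Ifitm genes encode small membrane proteins, the interferon-induced transmembrane proteins. IFITM3 sits in endosomal membranes, where it blocks the fusion of entering viruses such as influenza virus with the membrane of the cell. IFITM1 lies more at the cell surface, and IFITM2 is a close relative of IFITM3. Interferons raise several members through DNA elements known as ISRE and GAS, and myeloid cells also express members without infection. Less is known of Ifitm6.

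The members lie side by side on chromosome 7, within 63088 bases of the build GRCm38 (mm10) as annotated by GENCODE. In this order, Ifitm2 (ENSMUSG00000060591) spans chr7:140954837-140955987 on the minus strand with 2 exons. Ifitm1 (ENSMUSG00000025491) spans chr7:140967221-140969825 on the plus strand with up to 3 exons. Ifitm3 (ENSMUSG00000025492) spans chr7:141009586-141010770 on the minus strand with 2 exons, and Ifitm6 (ENSMUSG00000059108) spans chr7:141015699-141017924 on the minus strand with up to 3 exons. The gap between Ifitm1 and Ifitm3 held 39760 bases, that between Ifitm3 and Ifitm6 only 4928.

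The sequences before the starts of all 4 members are shown because the members differ below in how far they go with the other interferon-stimulated genes of a cell. They are the 250 bases before the start of each gene in RefSeq on GRCm38.p6, written 5′ to 3′ on the strand of the gene. Capitals mark matches on either strand to the ISRE letters GAAA, any 2 bases, GAAA. The windows are chr7:140955962-140956211 for Ifitm2, chr7:140967826-140968075 for Ifitm1, chr7:141010745-141010994 for Ifitm3 and chr7:141016893-141017142 for Ifitm6. GENCODE models of the 4 genes begin farther upstream than the RefSeq starts, so the windows of Ifitm1 and Ifitm6 lie wholly, and those of Ifitm2 and Ifitm3 in part, within the gene as GENCODE annotates it, and the sequence before the GENCODE starts of Ifitm1 and Ifitm6 was not searched.
Ifitm2: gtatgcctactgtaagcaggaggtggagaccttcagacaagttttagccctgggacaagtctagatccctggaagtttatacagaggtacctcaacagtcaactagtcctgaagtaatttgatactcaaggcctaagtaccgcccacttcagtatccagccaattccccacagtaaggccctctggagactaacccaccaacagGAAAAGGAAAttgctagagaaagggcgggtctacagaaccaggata
Ifitm1: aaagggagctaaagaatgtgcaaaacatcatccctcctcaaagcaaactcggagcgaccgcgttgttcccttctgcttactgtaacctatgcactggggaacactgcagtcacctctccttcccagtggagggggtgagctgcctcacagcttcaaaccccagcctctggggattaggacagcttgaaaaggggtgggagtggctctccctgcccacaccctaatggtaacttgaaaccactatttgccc
Ifitm3: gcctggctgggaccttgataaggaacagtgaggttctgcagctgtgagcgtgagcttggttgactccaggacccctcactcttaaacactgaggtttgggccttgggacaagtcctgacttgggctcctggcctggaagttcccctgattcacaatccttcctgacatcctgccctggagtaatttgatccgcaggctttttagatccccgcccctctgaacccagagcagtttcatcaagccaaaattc
Ifitm6: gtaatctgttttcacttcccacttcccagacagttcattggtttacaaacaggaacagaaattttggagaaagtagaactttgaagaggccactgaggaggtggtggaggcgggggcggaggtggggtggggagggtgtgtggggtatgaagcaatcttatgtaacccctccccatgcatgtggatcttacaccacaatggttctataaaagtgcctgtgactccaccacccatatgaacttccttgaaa
Ifitm2 had 1 ISRE match, GAAAAGGAAA, whose first base lies at -46 from the start. Ifitm3 had no match before its RefSeq start and 2 just after it, at +3 and +20, within the 27 bases of chr7:141010716-141010742.
Ifitm3 after its start: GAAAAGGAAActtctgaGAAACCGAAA
No ISRE match was found in the window of Ifitm1 or of Ifitm6, which is not the sequence before the GENCODE start of either gene. The GAS letters TTC, any 3 bases, GAA matched once in Ifitm6, as TTCCTTGAA at -10, and once in Ifitm3, as TTCTGAGAA at +14, which overlaps the second of its ISRE matches. Over 32851 windows of 300 bases (250 before and 50 after a start), 3.44% held an ISRE match, 0.225% held at least 2 and 8.3% held a GAS match. A match describes letters and is no measure of binding, and the absence of a match says nothing of a factor.

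The unit was the UMI, a molecular tag that counts 1 captured RNA molecule, read at the 3′ end, so levels of different genes are compared as UMIs per 1000000 UMIs (CPM) without scaling to length. Barcodes under 200 genes, above 90% of the highest gene number or above 7.5% mitochondrial UMIs were dropped, which left 8851 young, 10238 aged and 12648 aged-GA cells with a median of 4671, 3810 and 4752 UMIs. A cell was put into a class when at least 2 of its marker genes were found and fewer than 2 of each other class. This gave 53, 748 and 229 monocytes (young, aged and aged-GA), 12, 782 and 440 neutrophils, 5327, 2161 and 3394 T cells and 2300, 4357 and 5629 B cells. Marker genes left out of the gates were highest in their own class in 36 of 36 checks. Cells with markers of several classes entered no class and made up 5.54% (young), 15.1% (aged) and 13.6% (aged-GA) of kept cells, and 24 to 34 barcodes of kept cells were shared by any pair of libraries.

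The family was a family of myeloid cells in all 3 libraries. In monocytes its summed level was 5585 (5302 to 5878), 6753 (6682 to 6825) and 5896 CPM (5771 to 6022) in young, aged and aged-GA mice. In neutrophils it was 4195 (3674 to 4770), 5851 (5755 to 5948) and 5234 CPM (5116 to 5354). Basophils, blood cells of allergic reactions, held 4927 CPM in 114 aged cells (4694 to 5168) and 4446 CPM in 24 aged-GA cells (4007 to 4920), and none was gated in the young library. T cells held 3.81, 77.0 and 34.2 CPM and B cells 12.9, 89.0 and 35.8 CPM. Natural killer (NK) cells, of which 306, 255 and 246 were gated, held 3.79, 73.2 and 31.7 CPM. The intervals of the myeloid classes lay above those of every lymphocyte class in each library.

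Each member had its own order of classes. Ifitm3 was highest in monocytes, at 3964, 4900 and 4366 CPM (young, aged and aged-GA), and its level in neutrophils was 1530, 1671 and 1290 CPM. Ifitm2 was at 1343, 1389 and 1140 CPM in monocytes and 972, 1635 and 1892 CPM in neutrophils. The order of these classes for Ifitm2 was therefore not the same in the 3 libraries, with neutrophils higher in aged and aged-GA mice and overlapping intervals in young mice (1206 to 1491 and 730 to 1269). Ifitm6 was higher in neutrophils than in monocytes of each library, at 1566, 691 and 682 CPM against 271, 404 and 362 CPM. This order did not hold for mature neutrophils, set apart below. They held Ifitm6 at 162 CPM (aged) and 125 CPM (aged-GA), less than the monocytes of the same library. Ifitm1 was highest in basophils, at 3901 CPM (aged) and 3709 CPM (aged-GA), followed by neutrophils at 1854 and 1370 CPM, and was low in monocytes at 60.1 and 27.8 CPM.

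**Figure D1:**
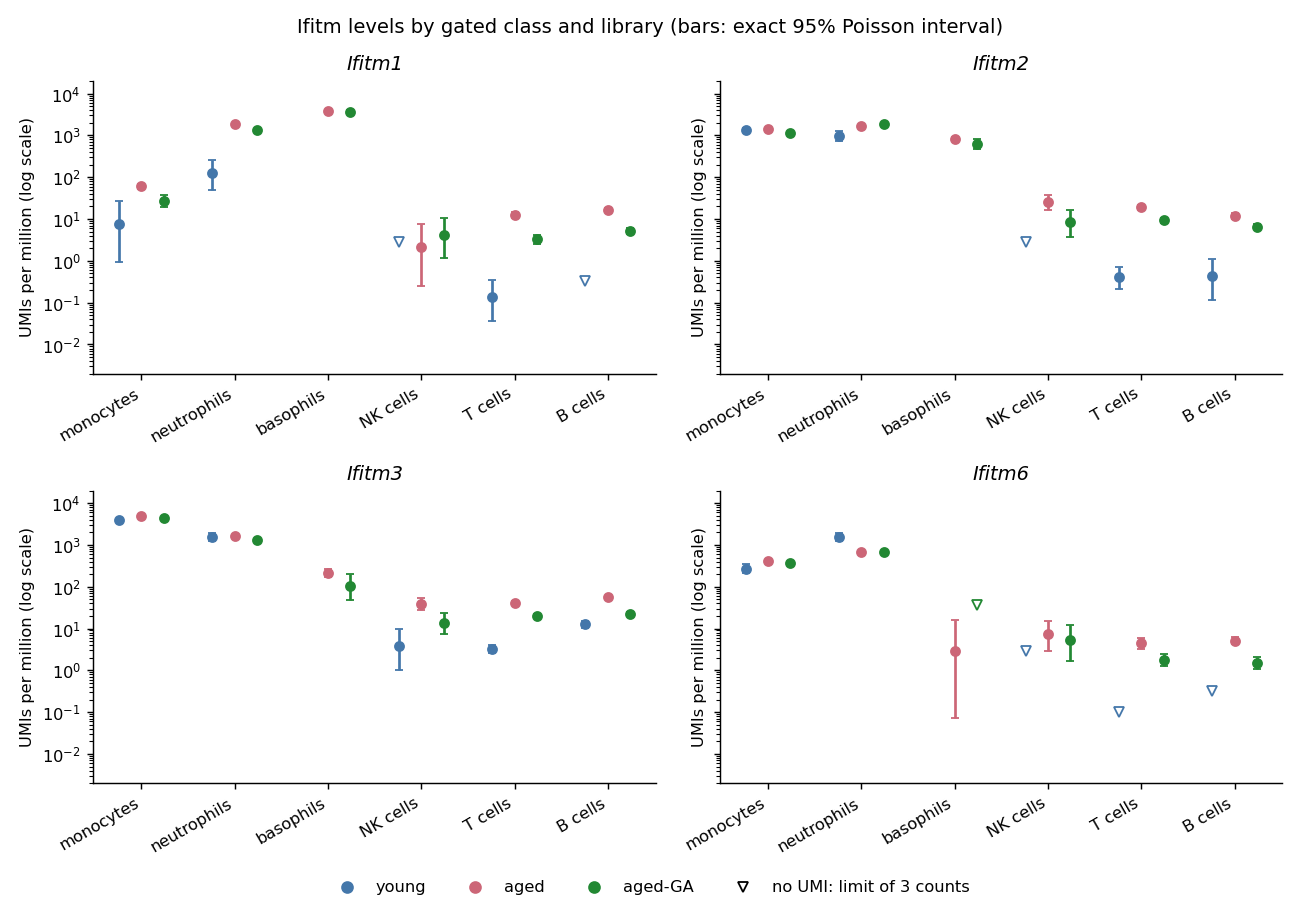
The 4 panels plot each member in CPM on a log axis for 6 gated classes, with a point per library, exact 95% Poisson intervals as bars and open triangles at the limit of 3 counts where no UMI was found. Ifitm3 stands at 4900 in aged monocytes and 41.0 in aged T cells, while Ifitm1 peaks in basophils at 3901.

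Nearly every monocyte held Ifitm3. It was found in 53 of 53 young monocytes and in 98.4% (aged) and 98.7% (aged-GA) of the others, with 19.6, 34.1 and 27.8 UMIs in each positive cell. After thinning of each cell to 500 UMIs, the shares were 77.4%, 83.4% and 79.9%. Ifitm2 was found in 92.5%, 95.5% and 96.1% of monocytes and Ifitm6 in 60.4%, 76.1% and 70.7%. Ifitm3 made up 71.0%, 72.6% and 74.1% of the family UMIs of monocytes, so that the makeup of the family differed by only a few percentage points between the libraries.

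Monocytes fell into classical cells, which enter inflamed tissue, and nonclassical cells, which patrol the vessel wall. By markers, 2 young, 306 aged and 63 aged-GA monocytes were classical and 49, 428 and 162 were nonclassical. Ifitm3 was higher in classical cells, with 5986 CPM (aged, 5897 to 6075) and 6209 CPM (aged-GA, 6006 to 6418), than in nonclassical cells, with 3410 CPM (3331 to 3490) and 3139 CPM (3021 to 3260). Ifitm2 differed less, at 1526 against 1198 CPM in aged and 1246 against 1074 CPM in aged-GA cells. Ifitm6 was at 464 against 326 CPM and 449 against 295 CPM. Per UMI of Ifitm2, classical cells held 3.92 (3.80 to 4.06) and 4.98 UMIs of Ifitm3 (4.59 to 5.41) and nonclassical cells 2.85 (2.72 to 2.98) and 2.92 (2.71 to 3.15). Lyz2, the lysozyme gene that marks classical monocytes among other myeloid cells, was at 23298 CPM in classical and 5190 CPM in nonclassical cells of the aged library.

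Neutrophils carried opposite members at opposite ends of their maturation. Ngp, Camp, Ltf, Chil3 and Lcn2 encode proteins of granules, made by developing neutrophils. Cells with at least 3 of these genes found, together at 1% or more of UMIs, were set apart as immature. In the aged library, 703 mature cells held Ifitm1 at 2351 CPM (2282 to 2422) and Ifitm6 at 162 CPM (144 to 181), whereas 79 immature cells held Ifitm1 at 193 CPM (159 to 233) and Ifitm6 at 2459 CPM (2331 to 2592). In the aged-GA library, 388 mature cells held Ifitm1 at 1873 CPM and Ifitm6 at 125 CPM, and 52 immature cells held 110 and 2078 CPM. The same opposition was thus found in both libraries, with no overlap of intervals. Ifitm2 was higher in mature cells, at 1939 against 621 CPM in aged and 2420 against 567 CPM in aged-GA cells. Ifitm3 was higher in immature cells, at 2398 against 1453 CPM and 1683 against 1134 CPM.

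**Figure D2:**
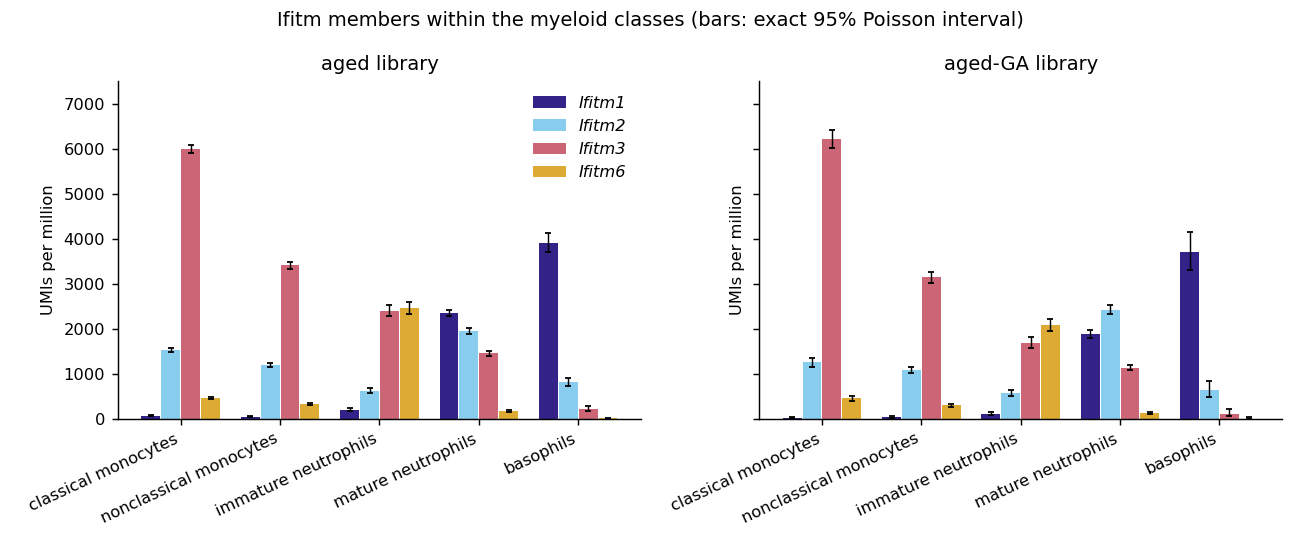
Bars give the 4 members in CPM in 5 kinds of myeloid cells of the aged and the aged-GA library, with exact 95% Poisson intervals. Ifitm3 is the tallest bar in classical monocytes (5986 and 6209), Ifitm1 in basophils (3901 and 3709), and Ifitm6 stands out in immature neutrophils (2459 and 2078).

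Among cells above 1%, the members still differed with the share of granule genes. In the aged library, Ifitm1 was at 2216 CPM in 233 cells without a granule UMI, 2385 CPM in 463 cells up to 1%, 727 CPM in 44 cells from 1 to 5% and 52.2 CPM in 42 cells above 5%. Ifitm6 ran the other way, at 71.0, 189, 1969 and 2690 CPM. Ifitm2 went with Ifitm1, at 1859, 1965, 974 and 490 CPM, and Ifitm3 was at 1263, 1512, 2630 and 2246 CPM, with its highest value from 1 to 5%. In the aged-GA library, Ifitm1 was at 1622, 2012, 193 and 69.2 CPM and Ifitm6 at 107, 136, 1421 and 2355 CPM over 140, 245, 22 and 33 cells. Chil3 is among the granule genes and is also a gene of classical monocytes. Of the family UMIs of aged mature neutrophils, 39.8% were Ifitm1 and 2.74% Ifitm6, and of aged immature neutrophils 3.41% and 43.4%.

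**Figure D3:**
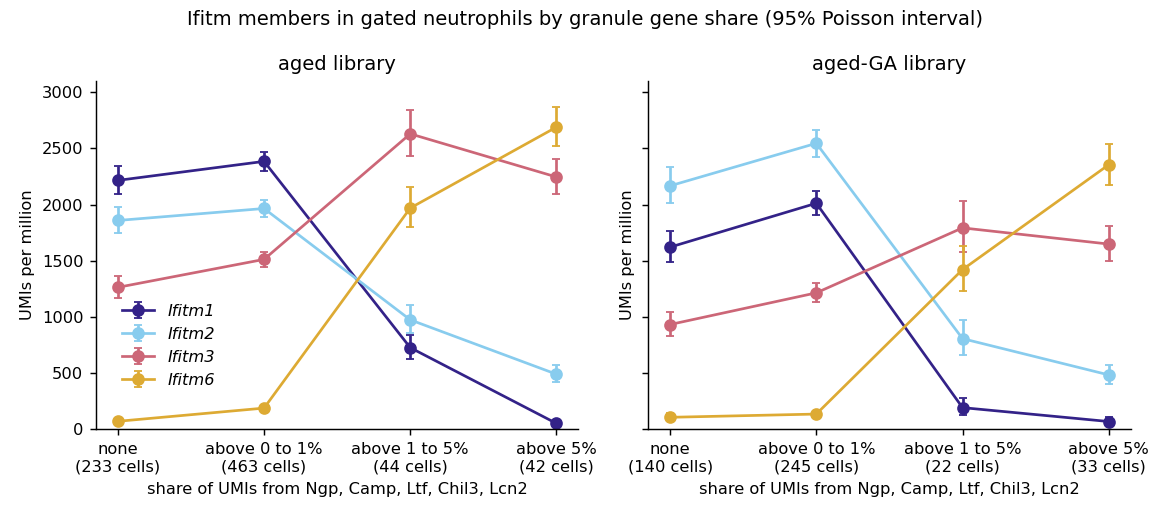
Lines join the level of each member, in CPM with 95% Poisson intervals, over 4 bins of neutrophils ordered by the share of their UMIs from 5 granule genes. In the aged library, Ifitm1 goes from 2216 to 52.2 and Ifitm6 from 71.0 to 2690 across the bins.

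Ifitm1 dominated the family in basophils, at 79.2% (aged) and 83.4% (aged-GA) of their family UMIs. Ifitm2 in basophils was at 809 CPM (717 to 911) and 630 CPM (472 to 824), Ifitm3 at 213 CPM (167 to 268) and 107 CPM (48.9 to 203). Ifitm6 had 1 UMI in aged and 0 in aged-GA basophils, which allows up to 35.7 CPM. The 114 aged basophils were 1.11% of the kept cells and held 13.9% of all Ifitm1 UMIs, beside 47.2% in neutrophils. Cells with markers of several classes held 30.1%, 52.6%, 60.1% and 52.4% of the UMIs of Ifitm1, Ifitm2, Ifitm3 and Ifitm6 in the aged library and 46.4%, 53.9%, 59.2% and 49.7% in the aged-GA library. The levels by class do not include these UMIs.

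In monocytes, aged against young, the family differed little. The log2 ratio (with 1 CPM added) of the summed family was 0.27 (0.20 to 0.35), where the median of 5515 counted genes was 0.01, and in nonclassical cells alone it was -0.11. Ifitm2 had 0.05, Ifitm3 0.31 and Ifitm6 0.58, and in nonclassical cells Ifitm3 had -0.17. Ifitm1 of monocytes was at 7.63 CPM (young, 0.924 to 27.6, from 2 UMIs) and 60.1 CPM (aged, 53.6 to 67.2). It was the 1 of 4 members at a log2 ratio of at least 1, the limit used below for calling a gene higher or lower, where 8.98% of all counted genes were called higher and 3.34% lower. It was counted through its 308 aged UMIs alone, so the call is no support for a difference. S100a8, a gene of neutrophils, had no UMI in young monocytes, which allows up to 11.4 CPM, and 93.7 CPM in aged ones. Its part in the Ifitm1 values was not tested.

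In neutrophils, aged against young, the comparison rested on 12 young cells, 5 of them immature, against 79 immature of 782 aged cells. Ifitm1 was at 126 CPM (young, 50.7 to 260) and 1854 CPM (aged, 1800 to 1909) and was called higher, as were 22.4% of the 2301 counted genes, but with 7 young and 4533 aged UMIs it was counted through the aged library. Ifitm6 was at 1566 CPM (1255 to 1932) and 691 CPM (659 to 725) and was called lower, as were 8.04%. Among mature cells the order of Ifitm6 was turned, at 62.3 CPM from 1 UMI in 7 young cells against 162 CPM in aged cells, but the young interval of 1.58 to 347 CPM covers both. Mature cells held Ifitm1 at 436 CPM (young, 175 to 899) and 2351 CPM (aged). Ifitm2 had a log2 ratio of 0.75 over all neutrophils and -0.04 over mature ones, and Ifitm3 of 0.13 and 0.15.

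In T and B cells the members were near 0 in the young library and higher in the aged library, beside the RNA of other cells. Ifitm3 of T cells was at 3.26 CPM (young, 2.64 to 3.99) and 41.0 CPM (aged, 37.3 to 44.9), and at 12.5 CPM (10.3 to 15.0) and 55.8 CPM (52.3 to 59.4) in B cells. Ifitm2 was at 0.412 and 19.3 CPM in T cells and 0.435 and 11.8 CPM in B cells. Ifitm1 was at 0.137 and 12.3 CPM in T cells, and in B cells it had 0 UMIs in young mice, which allows up to 0.326 CPM, and 16.3 CPM in aged mice. Ifitm6 had 0 UMIs in young T and B cells, which allows up to 0.103 and 0.326 CPM, and was at 4.43 and 5.17 CPM in aged ones. Of the members with at least 100 UMIs over both libraries, 3 of 3 were called higher in T cells, where 6.92% of genes were called higher and 0.887% lower, and 3 of 3 in B cells, where 2.79% and 0.953% were. Except Ifitm3 in B cells, with 115 UMIs in young mice, each of them passed that minimum through the aged library, so these counts are no support for a difference.

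Genes that T and B cells do not use were higher in the aged library along with the members. Lyz2 of T cells was at 0.824 CPM (young) and 94.6 CPM (aged), and at 2.50 and 116 CPM in B cells. S100a8 was at 2.40 and 67.3 CPM in T cells and 2.50 and 90.4 CPM in B cells. Such UMIs can come from free RNA, which broken cells release and droplets take up. Its level was computed in 2 ways, which did not give the same answer.

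The first way multiplied the Lyz2 level of a class by the ratio of the member to Lyz2 in red cell barcodes (under 200 genes and over 50% haemoglobin UMIs). It gave 89.9 CPM for the family in aged B cells, beside 89.0 observed, and 73.4 CPM in aged T cells, beside 77.0 observed. In aged-GA mice it gave 48.6 CPM in B cells and 37.5 CPM in T cells, beside 35.8 and 34.2 observed. For Ifitm3 it gave more than was observed in T, B and NK cells of both aged and aged-GA mice, with 64.8 against 55.8 CPM in aged B cells and 52.9 against 41.0 CPM in aged T cells. By this estimate no Ifitm3 of aged T or B cells was left over. It took all Ifitm3 of red cell barcodes as free RNA. This included barcodes with at least 3 Ifitm3 UMIs, described below, which held 14.8% (aged) and 31.25% (aged-GA) of those UMIs. The estimate was not made without them. Ifitm1 stood above it, at 16.3 against 5.25 CPM in aged B cells and 12.3 against 4.29 CPM in aged T cells, and so did Ifitm2 of aged T cells, at 19.3 against 12.3 CPM. In the young library it rested on 2 Lyz2 UMIs in red cell barcodes and gave 385 CPM for B cells that held 12.9, so it was not usable there.

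The second way, chosen after the data were seen, set the part of gated monocytes from Lyz2, that of gated neutrophils from S100a8 and that of red cell barcodes from haemoglobin. In aged B cells it came to 11.7 CPM for Ifitm2, beside 11.8 observed, and 3.64 CPM for Ifitm6, beside 5.17 observed. For Ifitm3 it came to 38.6 CPM beside 55.8 observed, and for Ifitm1 to 2.37 CPM beside 16.3 observed. Whether T and B cells held Ifitm3 beyond free RNA thus depended on the estimate.

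In aged T cells this second level was 31.2 CPM for Ifitm3, 9.46 CPM for Ifitm2, 1.78 CPM for Ifitm1 and 2.91 CPM for Ifitm6, below the observed values of all 4 members. In aged NK cells Ifitm3 was at 38.7 CPM (27.2 to 53.3) with 38.1 computed, while Ifitm2 was at 25.1 CPM (16.1 to 37.3) with 11.8 computed. The ratio of Ifitm3 to Ifitm2 UMIs was 4.71 (4.05 to 5.50) in aged B cells, 2.12 (1.80 to 2.50) in aged T cells and 1.54 (0.898 to 2.69) in aged NK cells. It was 4.31 (3.73 to 5.01) in the red cell barcodes of the same library, 3.53 in monocytes and 1.02 in neutrophils. The ratio of B cells was near that of the red cell barcodes, and that of T cells lay between monocytes and neutrophils. What sets these ratios was not tested.

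**Figure D4:**
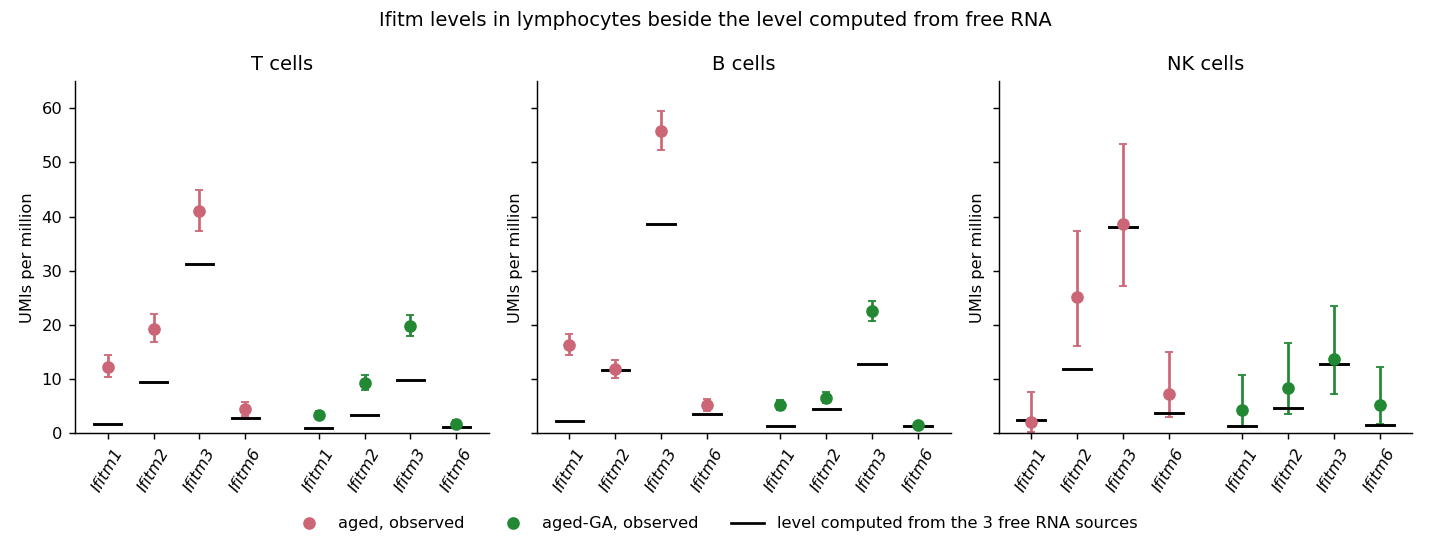
Points give the observed level of each member in T, B and NK cells of the aged and aged-GA libraries in CPM, with exact 95% Poisson intervals, and black lines the level computed from 3 sources of free RNA, the second of the estimates. Ifitm2 in aged B cells sits on its line (11.8 and 11.7), while Ifitm3 in aged B cells lies above it (55.8 and 38.6).

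Few lymphocytes held more than 1 UMI of a member. Ifitm3 was found in 17.9% of aged B cells, with 1.25 UMIs in each positive cell, and in 16.9% of aged T cells. NK cells, at a median of 3213 UMIs beside 3142 in B cells and 4664 in T cells, held it in 12.5%. After thinning to 500 UMIs, the shares were 3.08% in B cells (2.58 to 3.63), 1.90% in T cells (1.36 to 2.57) and 3.14% in NK cells (1.36 to 6.09), so B and NK cells did not differ beyond counting error. In young cells the unthinned shares were 1.87% in B, 0.957% in T and 0.654% in NK cells. The family was higher in CD4 than in CD8 T cells of each library, with 6.23 against 1.64 CPM in young, 103 against 55.2 in aged and 49.5 against 23.7 in aged-GA cells. Lyz2 was at 0.755 and 0.937 CPM in young, 86.7 and 86.5 CPM in aged and 28.0 and 22.9 CPM in aged-GA CD4 and CD8 T cells. S100a8 was at 2.64 and 2.19 CPM, 70.5 and 61.6 CPM, and 51.1 and 41.5 CPM in the same cells. The part of free RNA in the family values of CD4 and CD8 T cells was not tested.

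Single cells carried a large part of some lymphocyte values, chiefly those of Ifitm1. In the aged library, 145 of the 283 Ifitm1 UMIs of B cells came from 1 cell, which also held 469 UMIs of Igha, 84 of Jchain and 171 of Mzb1, genes of antibody-secreting plasma cells. Without it, Ifitm1 of aged B cells was at 7.94 CPM. In the aged-GA library, 40 of 137 Ifitm1 UMIs came from 1 cell with 1804 UMIs of Igha and 481 of Jchain, without which the level was 3.65 CPM. In aged T cells, 29 of 139 Ifitm1 UMIs lay in 1 cell with 40 UMIs of Ccl5, a gene of memory and effector T cells. In aged-GA T cells, 44 of 432 Ifitm3 UMIs lay in 1 cell. The cell with most Ifitm3 UMIs held only 2.68% of them in aged B cells and 1.73% in aged T cells.

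In the young library, Ifitm3 of B cells was concentrated in barcodes rich in haemoglobin. The 10 young B cells with at least 3 Ifitm3 UMIs held 67.0% of the Ifitm3 UMIs of the class, had a median of 68.5% haemoglobin UMIs, and 6 of them were over 50%. They held Isg15, a gene strongly raised by interferon, at 2182 CPM of the UMIs outside haemoglobin (1684 to 2782), beside 12.7 (10.5 to 15.4) in the 2257 young B cells without Ifitm3. Leaving out cells over 10% haemoglobin took the family in young B cells from 12.9 to 6.90 CPM.

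Red cell barcodes themselves held Ifitm3. They numbered 941, 5460 and 3812 in young, aged and aged-GA blood, and Ifitm3 was at 810 (722 to 906), 835 (783 to 890) and 425 (385 to 469) CPM of the UMIs outside haemoglobin. In the young library, 306 Ifitm3 UMIs stood beside 2 UMIs of Ifitm2, 2 of Lyz2 and none of Ifitm1 or Ifitm6, and 28 barcodes with at least 3 UMIs held 79.7% of them. In the aged library, 962 Ifitm3 UMIs stood beside 223 of Ifitm2 and 1721 of Lyz2, and the 35 barcodes with at least 3 held 14.8%. Barcodes with at least 3 Ifitm3 UMIs held Isg15 at 18622, 16318 and 16131 CPM on the same scale (young, aged and aged-GA), beside 1993, 1699 and 918 in barcodes without Ifitm3. Rsad2, an antiviral enzyme gene, was at 17772, 14958 and 17585 beside 5178, 3675 and 2808. A small set of haemoglobin-rich barcodes with Ifitm3, Isg15 and Rsad2 was thus found in all 3 libraries. Bst2 and Ifit3, also interferon-stimulated genes, had 6 and 2 UMIs in this set in the young library. They had 1 and 0 UMIs in the aged and 0 and 0 in the aged-GA library.

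GA was compared with no GA at the same age. In monocytes, Ifitm2 had a log2 ratio (aged-GA over aged) of -0.29, Ifitm3 of -0.17 and Ifitm6 of -0.16, where the median of 6079 genes was 0.07. Ifitm1 of monocytes was at 60.1 CPM (aged) and 27.8 CPM (aged-GA, 19.8 to 37.8) and was the 1 of 4 members called lower, as were 0.674% of genes, while 0.296% were called higher. With 308 and 40 UMIs it was counted through the aged library, so this call too is no support for a difference. In the aged library, 22 of the 748 monocytes held 183 of the 308 UMIs, and in the aged-GA library 4 cells held 13 of the 40. In nonclassical monocytes Ifitm1 had -0.44 (-1.12 to 0.19), short of the limit. In classical monocytes it had -1.43 (-2.40 to -0.66), past the limit, and 0.217% of the 4149 counted genes were at or below this value. With 186 aged and 13 aged-GA UMIs it was again counted through the aged library. S100a8 in gated monocytes was at 93.7 and 61.1 CPM. Within classical monocytes the family had -0.02 (-0.07 to 0.03) and Ifitm3 0.05 (0.00 to 0.11), and within nonclassical monocytes they had -0.13 and -0.12. Classical cells were 306 of 748 aged and 63 of 229 aged-GA monocytes, and Ifitm3 was higher in classical cells of both.

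In neutrophils, 0 of 4 members reached the limit, where 0.657% of genes were called higher and 0.125% lower. Ifitm1 had a log2 ratio of -0.44 (-0.51 to -0.36), Ifitm3 of -0.37 (-0.45 to -0.29) and Ifitm6 of -0.02 (-0.13 to 0.09), whereas Ifitm2 had 0.21 (0.14 to 0.28). The median of 3197 genes was 0.12. Ifitm2 of mature neutrophils was at 1939 CPM (aged, 1877 to 2003) and 2420 CPM (aged-GA, 2325 to 2517), and Ifitm1 at 2351 and 1873 CPM. The most abundant member of mature neutrophils was therefore Ifitm1 in the aged and Ifitm2 in the aged-GA library. Ifitm3 UMIs per Ifitm2 UMI were 0.749 (0.712 to 0.787) in aged and 0.468 (0.436 to 0.503) in aged-GA mature neutrophils. Whether this lies within the variation between mice cannot be told from 1 library each.

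In B cells, Ifitm3 was at 55.8 CPM (aged) and 22.5 CPM (aged-GA, 20.8 to 24.4), Ifitm1 at 16.3 and 5.15 CPM, Ifitm2 at 11.8 and 6.57 CPM and Ifitm6 at 5.17 and 1.54 CPM. Of these 4, all but Ifitm2 were called lower, where 0.247% of genes were called lower and 0.0515% higher. The contrast chose the family, so nothing is read from this count, and without the cell of each library named above Ifitm1 had a log2 ratio of -0.94, short of the limit. Lyz2 went from 116 to 33.7 CPM, a log2 ratio of -1.75 beside -1.27 for Ifitm3. After subtraction of free RNA from 3 sources, Ifitm3 was at 17.1 CPM (aged) and 9.76 CPM (aged-GA), a log2 ratio of -0.75. Ifitm2 was then at 0.101 and 2.07 CPM, the opposite order. These were left of 11.8 CPM (aged, 10.3 to 13.6) with 11.7 computed and 6.57 CPM (aged-GA, 5.64 to 7.62) with 4.51 computed. The aged remainder is smaller than the counting error, so nothing is read from this order. The estimate from Lyz2 and red cell barcodes left no Ifitm3 in either library.

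In T cells, Ifitm3 was at 41.0 CPM (aged) and 19.8 CPM (aged-GA, 18.0 to 21.8), Ifitm2 at 19.3 and 9.31 CPM and Ifitm1 at 12.3 and 3.30 CPM. Of the 3 members with enough UMIs, Ifitm1 and Ifitm3 were called lower, as were 0.312% of genes, with 0.0645% called higher, and Ifitm2 had -0.98. With 72 aged-GA and 139 aged UMIs, Ifitm1 was counted through the aged library, so its call is no support for a difference. Lyz2 went from 94.6 to 26.1 CPM. After subtraction of free RNA from 3 sources, Ifitm3 was at 9.76 CPM (aged) and 9.94 CPM (aged-GA), a log2 ratio of 0.02. These were left of 41.0 CPM (aged, 37.3 to 44.9) with 31.2 computed and 19.8 CPM (aged-GA) with 9.87 computed. The 1 aged-GA cell named above held 44 of 432 Ifitm3 UMIs, and without it the observed level was 17.8 CPM. The subtraction was not repeated without this cell, so nothing is read from the near equality. In NK cells the family was at 73.2 CPM (57.0 to 92.4) and 31.7 CPM (21.4 to 45.2), and Lyz2 at 116 and 33.8 CPM. The family and Lyz2 were thus lower in the aged-GA library in T and NK cells. In myeloid kinds the family had log2 ratios of -0.02 (classical monocytes), -0.13 (nonclassical monocytes), -0.09 (mature neutrophils) and -0.35 (immature neutrophils, -0.44 to -0.27).

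Ifitm3 was higher in most sets of myeloid cells rich in other interferon-stimulated genes. A list of 40 such genes without Ifitm members was summed in each cell, and the 10% of cells of a class with the highest share, among those with at least 2000 UMIs, were set against the rest. In aged classical monocytes Ifitm3 was at 8241 CPM (7898 to 8594) in 30 such cells and 5770 CPM (5679 to 5862) in the rest, and in aged nonclassical monocytes at 4942 and 3285 CPM. Lyz2 was also higher in these cells, at 27671 against 22884 CPM and 6987 against 5034 CPM. In aged-GA classical monocytes, with 6 such cells, the Ifitm3 intervals of 6327 to 7913 and 5931 to 6358 CPM overlapped. In aged mature neutrophils it was at 3785 CPM (3445 to 4150) in 43 cells and 1338 CPM (1277 to 1401) in the rest. Ifitm2 differed less in the same neutrophils, at 2273 and 1814 CPM, and Ifitm1 was at 2816 and 2200 CPM. In aged-GA mature neutrophils Ifitm3 was at 2317 and 1046 CPM, and Ifitm1 at 1714 (1427 to 2042) and 1820 CPM (1724 to 1920), with overlapping intervals. Lyz2 was also higher in the rich aged mature neutrophils, at 4320 against 2893 CPM. In the aged-GA ones its intervals overlapped, at 2248 to 3003 and 2126 to 2343 CPM.

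In lymphocytes the same split gave values that differed by member and library. In aged-GA B cells Ifitm3 was at 68.9 CPM (58.9 to 80.2) in cells rich in the list and 17.8 CPM (16.1 to 19.6) in the rest, while Lyz2 was at 31.2 and 33.7 CPM. In aged B cells Ifitm3 was at 123 CPM (105 to 142) and 49.3 CPM (45.9 to 52.9), and Lyz2 at 132 (114 to 153) and 113 CPM (108 to 118). Ifitm2 was at 13.1 and 11.7 CPM in the aged cells and 7.39 and 6.51 CPM in the aged-GA cells, with overlapping intervals. Ifitm1 of aged-GA B cells was at 20.1 (14.9 to 26.6) and 3.61 CPM (2.89 to 4.45), from 49 and 87 UMIs. The 1 cell named above held 40 Ifitm1 UMIs of this class. Which of the 2 sets it fell in was not recorded, so nothing is read from these 2 levels. In young B cells the Ifitm3 intervals overlapped, at 12.0 to 33.0 CPM and 8.71 to 13.3 CPM. In young T cells Ifitm3 was at 14.2 and 2.22 CPM and in aged-GA T cells at 44.9 and 17.6 CPM, without overlap of intervals. The rich aged-GA T cells held 79 Ifitm3 UMIs and the rest 352, and 1 cell of the class held 44. The set of that cell was not recorded, so nothing is read from the 2 aged-GA levels. The rich young T cells held 36 Ifitm3 UMIs and the rest 59, and 1 young T cell held 15. That cell had 60.9% haemoglobin UMIs, 23 UMIs of Isg15 and 14 of Rsad2, and its set was not recorded. The list includes Isg15 and Rsad2, which haemoglobin-rich barcodes held along with Ifitm3. Among T cells with at least 3 Ifitm3 UMIs, 2 of 7 (young) and 4 of 17 (aged-GA) were over 50% haemoglobin. The part of such cells in the values of this split was not tested. Ifitm2 of young T cells was at 3.15 (1.36 to 6.21) and 0.151 CPM (0.0411 to 0.386), from 8 and 4 UMIs. Of the 12 Ifitm2 UMIs of this class, 1 cell held 4. Its set was not recorded, so nothing is read from these 2 levels either. In aged T cells the Ifitm3 intervals overlapped, at 37.3 to 65.6 CPM and 35.3 to 43.0 CPM, and so did those of Ifitm2. Ifitm1 of aged T cells had the opposite order, at 1.92 CPM (0.233 to 6.95) in the rich cells and 13.4 CPM (11.2 to 15.8) in the rest. These rest on 2 and 136 UMIs, and 1 cell of the class held 29.

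**Figure D5:**
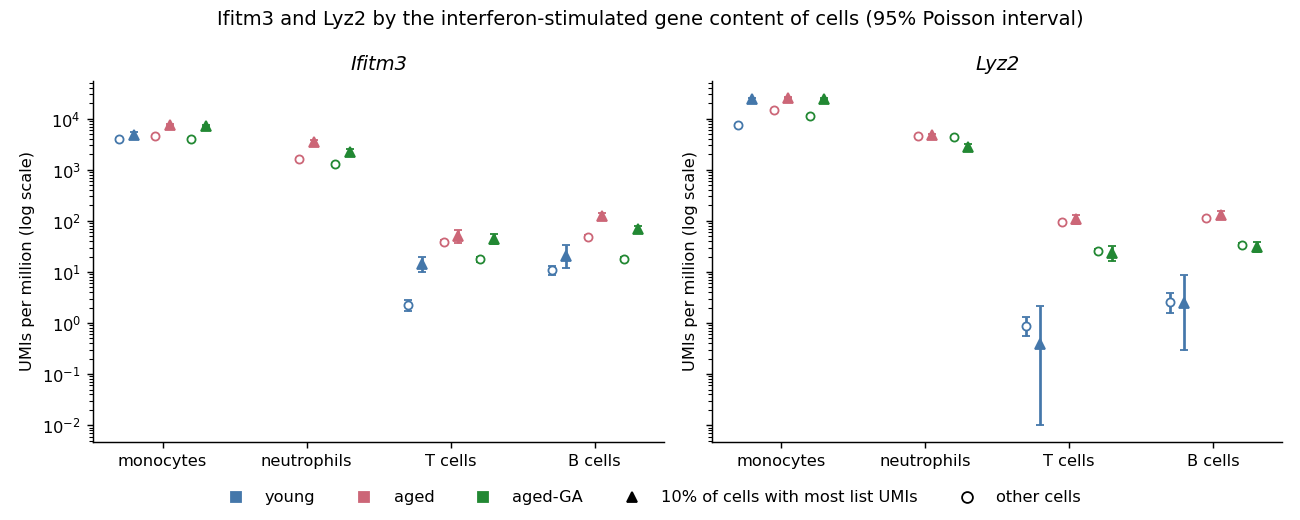
Triangles give the level, in CPM on a log axis with 95% Poisson intervals, in the 10% of cells richest in other interferon-stimulated genes and circles that in the other cells of the class, for Ifitm3 and for Lyz2. In aged-GA B cells Ifitm3 stands at 68.9 and 17.8, and Lyz2 at 31.2 and 33.7; young neutrophils were too few to be plotted.

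The other genes of the interferon pathway are given by counts. In monocytes, aged over young, 14 of 32 counted interferon-stimulated genes were called higher and 0 lower, with a median log2 ratio of 0.73, where the median over all genes was 0.01, 8.98% of genes were called higher and 2 of the 53 young monocytes were classical. All of the 14 except Ifi27l2a, with 316 young UMIs, were counted through the aged library, such as Ifit3 and Gbp7 without a young UMI. The count is therefore no support for a difference. Ifi27l2a was at 1205 CPM (young) and 3342 CPM (aged), Isg15 at 30.5 and 68.9 CPM and Ifi203 at 38.1 and 170 CPM. The young levels of Isg15 and Ifi203 rest on 8 and 10 UMIs. In neutrophils, where 22.4% of genes were called higher and 8.04% lower, 11 of 19 were called higher and 2 lower (Cmpk2 and Samd9l), and these too were counted mainly through the aged library. In T cells 7 of 36 were called higher, beside 6.92% of genes, and in B cells 0 of 33, beside 2.79%. The medians of these 3 classes were 1.43, 0.63 and 0.24, beside 0.18, 0.29 and 0.17 over all genes. For aged-GA over aged, 1 of 33 in monocytes was called lower, beside 0.674% of genes. This was Gbp7, a GTPase of host defence, at 20.5 CPM (aged) and 8.33 CPM (aged-GA). With 105 and 12 UMIs it was counted through the aged library, so its call is no support for a difference. None was called in neutrophils, T or B cells. There 0.125%, 0.312% and 0.247% of genes were called lower and 0.657%, 0.0645% and 0.0515% higher. The medians for aged-GA over aged were -0.21 in monocytes, -0.05 in neutrophils, -0.20 in T cells and -0.11 in B cells, beside 0.07, 0.12, -0.07 and -0.01 over all genes. Isg15 had negative log2 ratios in each of the 4 classes, from -0.84 in B cells to -0.58 in monocytes, short of the limit.

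Of 10 genes of interferon receptors and their signalling, 1 was called in monocytes, aged over young, where 8.98% of genes were called higher and 3.34% lower. This was Jak2, a kinase bound to the receptor, called lower at 95.4 CPM (young, from 25 UMIs) and 45.1 CPM (aged). In neutrophils 2 of 7 counted genes were called higher, Ifnar2, a chain of the type I receptor, and Jak2, beside 22.4% of all genes. Both were counted through the aged library, with 208 and 121 UMIs against 0 and 1 in the 12 young cells. In T cells 1 of 10 was called lower and 1 higher, beside 0.887% and 6.92% of genes. Ifngr2, a chain of the interferon gamma receptor, was called lower, at 117 CPM (young) and 40.4 CPM (aged), and the kinase gene Tyk2 higher, at 9.78 and 22.7 CPM. In B cells 0 of 10 were called, where 2.79% of genes were called higher and 0.953% lower. No gene of this list was called for aged-GA over aged in the 4 classes. Among genes whose proteins act on or with IFITM proteins, 1 was called in these comparisons, the tetraspanin gene Cd81 in monocytes for aged-GA over aged. It was 1 of 4 counted there, beside 0.296% of genes called higher and 0.674% lower. Its levels of 16.6 CPM (aged) and 40.2 CPM (aged-GA) rested on 85 and 58 UMIs.

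Over 15 combinations of class and library with at least 50 cells, the genes most like each member were found by Pearson's r of log2(CPM + 1) among 11886 genes, as a description of points that share libraries. Those most like Ifitm3 were Ifi204 (0.99), Lst1 (0.98) and Cd300a (0.98), most like Ifitm2 were Ccl6 (0.98), Alox5ap (0.97) and Il17ra (0.97), most like Ifitm6 were Hp (0.99), Cd300lb (0.98) and Chil3 (0.98), and most like Ifitm1 were Dmxl2 (0.96), Ptgs2 (0.96) and Lilr4b (0.95). Among the members, Ifitm2 and Ifitm3 were most alike (0.96) and Ifitm1 and Ifitm6 least (0.62).

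Of the other Ifitm genes in the matrices, Ifitm5 and Ifitm7 had at most 17 and 2 UMIs in a gated class of a library. Ifitm10, a distant relative at chr7:142325837-142373753, was found in NK cells at 113, 111 and 155 CPM and in T cells, with 250, 210 and 703 UMIs in young, aged and aged-GA mice. Its level was 8.58, 18.6 and 32.2 CPM, so that it was highest in the aged-GA library, where Ifitm1, Ifitm2, Ifitm3 and Lyz2 of T cells were lower than in the aged library. Memory-marked T cells held it at 24.2, 29.7 and 48.4 CPM and naive-marked ones at 4.85, 4.13 and 2.51 CPM. In B cells it had 1, 6 and 11 UMIs.

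Sequence shared between the members limits how exactly reads can be assigned. Of the 50-base stretches in the last 500 bases of the transcripts, 3.33% of those of Ifitm1, 4.43% of Ifitm2, 7.76% of Ifitm3 and none of 458 of Ifitm6 were also found in another member. In Ifitm2, 41.9% were also found in other genes of the annotation, all with Gm symbols, against 10.9% in Ifitm3, 8.65% in Ifitm1 and none in Ifitm6. How the counting treated such reads is not given in the sources used here, so the level of Ifitm2 against the other members is the least certain.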

How the data were processed

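Droplet-based 3′ libraries were sequenced on the DNBseq platform. Reads were processed with Cell Ranger, and the authors deposited its UMI counts per gene and barcode without normalization; per the file headers the version was 5.0.0, and the submitters' processing notes name the build mm10. The libraries held 58894294 (young), 82260961 (aged) and 98155671 (aged-GA) UMIs in 10842, 16038 and 17332 barcodes. The filters on barcodes follow the study's methods, and cells were gated by marker genes.

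UMIs were summed per class and library and scaled to CPM, so a level is that of the whole class. Log2 ratios used a pseudocount of 1 CPM, but their intervals did not. Genes needed 100 UMIs in the 2 libraries together to be counted and were called at a log2 ratio of at least 1 in size. Poisson and binomial intervals of 95% are exact. Where no UMI was found, the limit is 3 counts. Doublets were called by Scrublet (scanpy 1.11.5) and kept in the values except in an alternative. Gates and log2 ratios were tested on simulated data. The simulated cells were drawn from the summed profiles of aged cells that had already passed the gates. No free RNA, doublets or small groups of cells were added, so the gates and ratios were not tested under these. Other tools were numpy 2.4.6, scipy 1.17.1, pandas 2.3.3 and matplotlib 3.10.9.

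The members and the gene lists were chosen with earlier results of these data known. Genes named are the members, the other Ifitm genes, the genes of the lists called in a class (with Isg15, Ifi203 and Ifi27l2a as examples), the references Lyz2 and S100a8, the markers and the 3 genes most like each member. Igha, Jchain, Mzb1 and Ccl5 of single cells, and Rsad2, Bst2 and Ifit3 beside Isg15 in red cell barcodes, were named after their values were seen. Gene positions came from GENCODE vM21 and sequences from RefSeq on GRCm38.p6, in which 4 of 4 members were matched. Alternatives changed the filters, doublets, gate, denominator, weight of cells, pseudocount and free RNA.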

Additional observations from a re-analysis of the deposited data

Results flagged for a closer look

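Ifitm2 had a log2 ratio of 0.21 in neutrophils and -0.98 in T cells, aged-GA over aged, so that it differed in sign between the classes, and this difference was not tested. Lyz2 had -0.06 and -1.82 in the same classes.

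Ifitm6 had a log2 ratio of 0.58 in monocytes and -1.18 in neutrophils, aged over young. This difference was not tested either, and the second value rests on 12 young neutrophils, of which 5 were immature.

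Cells with markers of several classes, which entered no comparison, held the family at 140, 4666 and 1404 CPM (young, aged and aged-GA; 490, 1541 and 1722 cells). Scrublet called 332, 443 and 541 of them doublets.

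Barcodes that failed the filters and were not red cell barcodes held the family at 14.4, 2385 and 292 CPM (young, aged and aged-GA), over 1050, 340 and 872 barcodes with a median of 9.98%, 12.3% and 12.1% mitochondrial UMIs.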

How the results depend on the processing

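No replicate could be left out, and no test of a difference could be made, with 1 library per group. No paired analysis was possible because the groups have 1 library each. Of 80 alternatives for the summed family, 55 stayed within the counting interval of the value given and 0 of the called values changed sign. For single members the numbers were 327, 236 and 2. These intervals were computed without the pseudocount and were stretched to the value given where they did not reach it. In T cells, aged over young, the family interval of 4.05 to 4.64 was thus taken from 4.02. Thinning each cell to 500 UMIs moved 43 of 48 shares of cells with a UMI beyond their interval, since fewer UMIs are drawn. In monocytes, aged over young, the family had 0.069 under a stricter gate, 0.43 with a gate by most marker UMIs and -0.11 in nonclassical cells only, beside 0.27. For aged-GA over aged it had -0.30 under the stricter gate and -0.13 in nonclassical cells only, beside -0.20. In neutrophils, aged over young, it had 0.71 without haemoglobin, mitochondrial, ribosomal protein and immunoglobulin genes in the denominator and 0.68 as a mean of cells, beside 0.48, and for aged-GA over aged -0.089 in mature cells only, beside -0.16. In T cells, aged over young (4.02), it had 4.02 (4.017) with at least 500 genes, 3.86 under the stricter gate, 4.02 (4.018) with the other denominator, 2.66 with a pseudocount of 10 CPM and 3.40 less free RNA from 3 sources. For aged-GA over aged (-1.15) it had -0.98 with 10 CPM, -0.37 with the gate by most marker UMIs and -0.73 less free RNA. In B cells, aged over young (2.69), it had 3.24 without doublets, 2.42 under the stricter gate, 2.11 with 10 CPM, 2.44 with the gate by most marker UMIs, 3.63 without cells over 10% haemoglobin and 1.70 less free RNA. For aged-GA over aged (-1.29) it had -1.11 with 10 CPM, -0.99 with the gate by most marker UMIs and -1.01 less free RNA. Among members, Ifitm3 in T cells, aged-GA over aged, went from -1.01 to 0.023 less free RNA from 3 sources, and Ifitm6 in neutrophils, aged over young, from -1.18 to 1.36 in mature cells only. The value of 0.023 includes the 1 aged-GA T cell with 44 of 432 Ifitm3 UMIs, so nothing is read from it. Of 161 alternatives for called members, 19 were not past the limit. Free RNA set by Lyz2 and red cell barcodes alone left no positive level of the family in at least 1 library of each class, so it gave no ratio. Monocytes and neutrophils use Lyz2 themselves, at 15610 and 4057 CPM in the aged library, so in these classes it does not measure free RNA. The gate by most marker UMIs, the kinds of cells, the haemoglobin limit, the cell with most family UMIs and the 3 sources were chosen after seeing the data. The causes of these shifts were not tested.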
